A study of Rattus norvegicus with 9 samples.

Results

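Endothelial cells line every blood vessel of the kidney, and 9 genes by which they are commonly recognised were followed here: Pecam1, Cdh5, Kdr, Flt1, Tek, Tie1, Vwf, Eng and Emcn. Every probe on the array that carried one of these gene names was taken, which gave 10 probes for the 9 genes, of 30367 probes for 26115 gene names in all. Vwf had 2 probes and each other gene 1. A probe was tested for a difference when it was brighter than the negative control spots by a set margin on at least 4 arrays. This held for 9 of the 10 probes and 8 of the 9 genes, with Tek left below it, and for 15635 of all probes.

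The study asked how mesenchymal stromal cells (MSC), given during cold perfusion, alter a kidney that has been without blood flow before its removal. All kidneys came from F344 rats and had 20 min. of warm ischaemia. The MSC group (n = 4) was then perfused for 4 hrs at 4°C with Belzer solution, a cold preservation fluid, that carried 3000000 MSC from the bone marrow of EGFP-transgenic Sprague Dawley rats. The NP group (n = 5) is given as not perfused in its treatment field and in the methods, whereas its titles name a 4 hrs perfusion with the solution, so NP is used here as the group name only. Each array was 1 kidney, and 1 further MSC array that the authors discarded was not analysed here. If the NP kidneys were not perfused, the perfusion and the MSC cannot be told apart. In whole-kidney RNA, fewer endothelial cells and less RNA per cell cannot be told apart either.

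The 9 genes stand for different tasks of the vessel wall. Pecam1 and Cdh5 (VE-cadherin) hold neighbouring cells together. Kdr and Flt1 are receptors for vascular endothelial growth factors, Tek is the receptor for angiopoietins and Tie1 its partner. Eng (endoglin) is a co-receptor for ligands of the TGF-beta family, Emcn (endomucin) is a sialomucin on the luminal surface, and Vwf (von Willebrand factor) is stored in the endothelial cell and, once released, catches platelets. In the kidney, Emcn and Kdr are known from the glomerular and peritubular capillaries, while Vwf is typical of larger vessels. Eng is also a surface marker of MSC, and Vwf is also made by megakaryocytes and carried in platelets.

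Expression was read on 1-colour Agilent arrays, 1 array per kidney, each probe being a stretch of 60 bases spotted 2 times. Values are log2 intensities after cyclic loess normalization, a scale on which 1 unit is a doubling. Of the gene spots, 67.7 to 72.9% were well above background in NP and 65.6 to 74.3% in MSC, no spot was saturated, and the filter lay between 8.75 and 8.87. Tubule markers (9 of 9 genes) and podocyte markers (5 of 6) passed the filter. The arrays lay on 2 slides, identified by the file headers. Slide 1 held NP 1, 2 and 3 with MSC 1 and 2, and slide 2 held NP 4 and 5 with MSC 3 and 4. The precision of all values is limited by the number of arrays.

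The probes of the 4 genes on which the results turn are shown 5′ to 3′, all in lower case, because they fix what part of each transcript was measured. The Vwf probe printed here begins at base 8595 of the transcript and the other Vwf probe at base 8743, so both read its far 3′ portion. The Eng probe begins at base 1955, the Emcn probe at base 528 and the Tie1 probe at base 2791.
Vwf (A_64_P114913): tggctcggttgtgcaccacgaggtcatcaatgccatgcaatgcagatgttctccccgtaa
Eng (A_44_P474559): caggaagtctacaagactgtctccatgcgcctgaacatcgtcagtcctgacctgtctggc
Emcn (A_44_P240274): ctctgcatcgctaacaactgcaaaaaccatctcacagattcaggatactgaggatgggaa
Tie1 (A_44_P520235): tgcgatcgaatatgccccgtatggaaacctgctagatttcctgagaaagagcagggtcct

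On the rn4 build that the array files use, the Vwf probes lay at chr4:161854554-161854613 and chr4:161854702-161854761 on the plus strand. The Tie1 probe lay at chr5:138950263-138950322 on the minus strand, and on the same chromosome the Tek probe at chr5:115178576-115178635 on the plus strand. The Emcn probe spanned 296 bases, chr2:234958254-234958549 on the plus strand, more than its 60 bases, so it crosses a gap between blocks of the transcript. Pecam1 was placed at chr10:96056219-96056278 and Cdh5 at chr19:779665-779724, both on the minus strand, and Flt1 at chr12:7957094-7957153 on the plus strand. Kdr and Eng are given as unmapped in the files. An exon annotation of that build was not used here. In a current RefSeq name table (GRCr8) all 10 probes were found under the same symbols.

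After the 4 hrs of perfusion with MSC the log2 fold changes of the 9 probes tested had no common sign. Whether the genes differed from each other in this was not tested. Vwf was lower in every MSC kidney than in every NP kidney, with both of its probes. Eng, Emcn and Tie1 were higher on average. The intervals of Eng and Emcn, like those of Pecam1, Cdh5, Kdr and Flt1, lay on both sides of 0. No probe of the 9 genes passed the test across all probes (limma, FDR under 0.05), and neither did any of the other probes (0% of 15635). At an unadjusted p under 0.05, 1 of the 9 probes tested was higher, Tie1, against 6.51% of all probes, and 2 were lower, both of Vwf, against 5.19% of all probes. In all, 5 of the 9 probes had a positive and 4 a negative log2 fold change, with a median of 0.08, beside 7622 positive, 8013 negative and a median of -0.0048 over all probes tested. The median of the members was not stable, at 0.02 without MSC 4, 0.13 without NP 2 and -0.03 within slide 1, where 4 of the 9 were positive. Whether the kidneys called replicates came from separate experiments is not stated, so the p-values measure the spread between these kidneys.

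**Figure D1:**
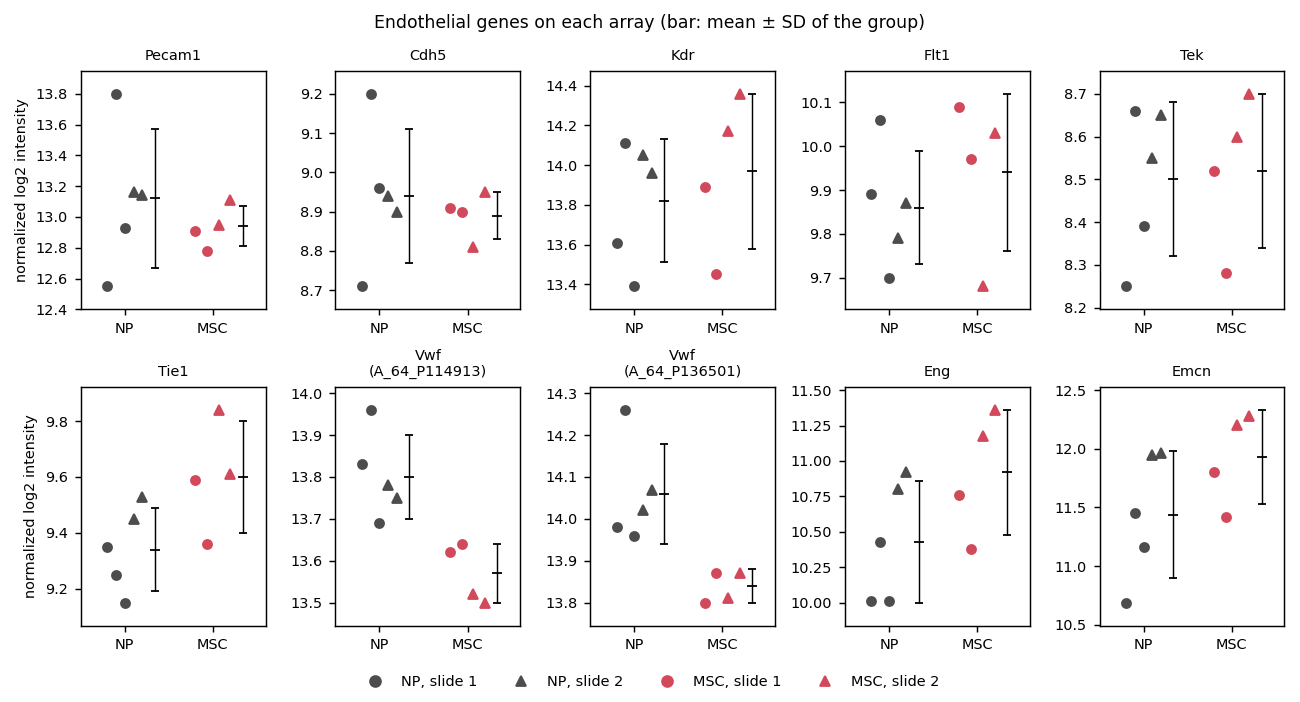
Normalized log2 intensity of each endothelial probe (y axis, own scale per panel) on the 5 NP and 4 MSC arrays. Circles are arrays of slide 1, triangles arrays of slide 2, and the bar is the mean ± SD of the group. Both Vwf panels show the 4 MSC kidneys below all 5 NP kidneys, and in the Eng and Emcn panels every triangle lies above every circle of the same group.

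Vwf, the protein that tethers platelets to an injured vessel wall, showed the one complete separation of the groups among the members. The probe A_64_P136501 read 13.98, 14.26, 13.96, 14.02 and 14.07 in NP 1 to 5 and 13.80, 13.87, 13.81 and 13.87 in MSC 1 to 4. The probe A_64_P114913 read 13.83, 13.96, 13.69, 13.78 and 13.75 in NP 1 to 5 and 13.62, 13.64, 13.52 and 13.50 in MSC 1 to 4. NP 2 was the highest kidney with either probe, and the lowest NP kidney still lay above the highest MSC kidney. Of all probes tested, 2.13% had every MSC array below every NP array and 3.17% every MSC array above, so the 2 Vwf probes were 2 of 9 below and no member probe lay wholly above.

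The size of the Vwf difference was small. The log2 fold change was -0.23 ± 0.08 (SE, n = 4 and 5), 0.851 times the NP level, with the first of the sequences printed, and its limma FDR was 0.335. With the second probe it was -0.22 ± 0.08, 0.858 times, at an FDR of 0.361. The 95% confidence intervals ran from -0.41 to -0.06 and from -0.40 to -0.04. An exact two-sided permutation test over the 126 ways of dividing the 9 arrays into 5 and 4 gave p = 0.0159 for each probe, where 0.00794 is the smallest value the design allows. Across the 10 member probes these exact p-values were not adjusted.

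Both Vwf probes gave like values from different bases of the transcript. The difference between them was -0.25 ± 0.06 in NP (SD, n = 5) and -0.27 ± 0.08 in MSC (n = 4), a shift of -0.01 with an exact permutation p of 0.81. The precision of the probes was unequal. The 2 spots of A_64_P114913 on an array differed by a median of 0.27, as much as the groups did, and those of A_64_P136501 by 0.04. Since the probes read the same RNA of the same 9 kidneys, they are not independent samples.

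The Vwf difference was present on both slides. Within slide 1 it was -0.20 (A_64_P114913) and -0.23 (A_64_P136501), and within slide 2 it was -0.26 and -0.21. A limma fit that also held a slide term gave -0.22 for each probe, at unadjusted p-values of 0.0133 and 0.023 and FDRs of 0.296 and 0.332. Leaving out each kidney in turn left it between -0.26 and -0.19 for the first probe and between -0.25 and -0.17 for the second, the smallest size being that without NP 2 in both cases.

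Blood cells can reach a kidney sample with the blood left in its vessels, and their markers were lower in part of the MSC kidneys. Of the red cell markers, 5 of 6 probes were lower, with a median log2 fold change of -1.35 and a summed intensity of 607000 to 822000 in NP and 108000 to 765000 in MSC. Hbb, a globin chain, had log2 fold changes of -1.68 (A_44_P306307) and -1.01 (A_64_P028036), and Alas2, the enzyme of haem synthesis in red cell precursors, one of -1.74, none past the FDR threshold. Without MSC 1 the first Hbb probe had -0.86 and Alas2 -1.12. All 4 platelet marker probes were lower, with a median of -0.14 and summed intensities of 14900 to 17300 in NP and 12700 to 15300 in MSC. Pf4, a chemokine of platelet granules, had a log2 fold change of -0.71, or -0.45 without MSC 1, and Itga2b, the platelet integrin, had -0.19 and -0.06 with its probes, while Gp5, Itgb3 and Ppbp did not pass the filter.

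The blood markers varied among the MSC kidneys. MSC 1 and MSC 3 had the lowest red cell levels, at -2.39 and -0.91 as mean centred log2 intensity, whereas MSC 2 and MSC 4, at 0.49 and 0.28, lay within the NP range of 0.18 to 0.84. The platelet level was -0.30, -0.05 and -0.29 in MSC 1, 2 and 3, all below the NP range of 0.02 to 0.18, and 0.05 in MSC 4, within it. The part of red cell and platelet RNA in the Vwf values was not tested.

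**Figure D2:**
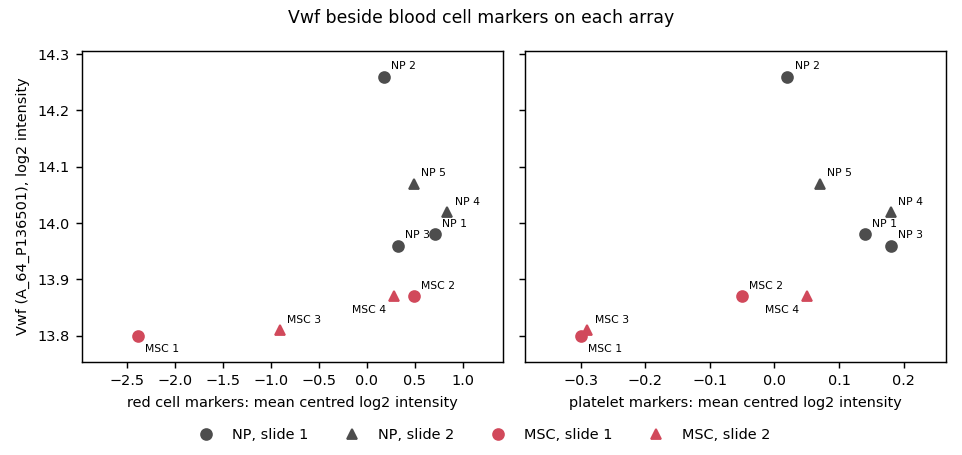
Vwf log2 intensity (probe A_64_P136501, y axis) against the mean centred log2 intensity of the red cell markers (left) and platelet markers (right) on each array. Circles are slide 1 and triangles slide 2. MSC 1 and MSC 3 lie left of the NP range in the red cell panel, and MSC 1, MSC 2 and MSC 3 do so in the platelet panel, while all 4 MSC kidneys have lower Vwf than all 5 NP kidneys.

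Eng and Emcn had the largest positive differences among the members. Eng read 10.01, 10.43, 10.01, 10.80 and 10.92 in NP 1 to 5 and 10.76, 10.38, 11.18 and 11.36 in MSC 1 to 4. Emcn read 10.69, 11.45, 11.16, 11.95 and 11.96 in NP and 11.80, 11.42, 12.20 and 12.28 in MSC. For both genes MSC 3 and MSC 4 were above all NP kidneys, MSC 1 and MSC 2 were not, and the groups overlapped. NP 1 was the lowest kidney for Emcn and shared the lowest place with NP 3 for Eng.

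The mean of Eng was 10.43 ± 0.43 in NP (SD, n = 5) and 10.92 ± 0.44 in MSC (n = 4), a log2 fold change of 0.49 ± 0.25 (SE), or 1.40-fold. Its 95% confidence interval was -0.07 to 1.05 and its limma FDR 0.478. Emcn had 11.44 ± 0.54 in NP and 11.93 ± 0.40 in MSC, a log2 fold change of 0.48 ± 0.28, also 1.40-fold, with an interval of -0.14 to 1.11 and an FDR of 0.526. The exact permutation p-values were 0.135 and 0.183. With arrays weighted by their quality in limma the values were 0.19 for Eng and 0.13 for Emcn. So with the slides disregarded neither difference passed the limma FDR or the exact test over all kidneys. Of the 9 fits that left out a kidney, 2 for Eng and 1 for Emcn had an unadjusted limma p under 0.05. With the replicate number as a block the unadjusted p-values were 0.0188 and 0.0248, at FDRs of 0.396 and 0.404.

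Much of the spread of Eng and Emcn followed the slide. Kidneys of slide 2 exceeded those of slide 1 by 0.70 ± 0.12 for Eng (SE, limma FDR 0.0584) and by 0.75 ± 0.15 for Emcn (limma FDR 0.0896). Kdr was higher on slide 2 by 0.43 ± 0.16 (limma FDR 0.284) and Tie1 by 0.24 ± 0.09 (limma FDR 0.259). Thus 4 of the 9 probes were higher on slide 2 at an unadjusted p under 0.05, against 7.15% of all probes, and none passed an FDR of 0.05, which 0.0959% of all probes did. The kidneys of the slides were different animals, so the slide and the kidneys on it cannot be told apart.

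With the slide as a block the difference between MSC and NP in Eng was 0.42 ± 0.12, with an interval of 0.15 to 0.69, an unadjusted p of 0.00697 and an FDR of 0.285. That of Emcn was 0.41 ± 0.15, with an interval of 0.06 to 0.76, an unadjusted p of 0.0273 and an FDR of 0.346. Within the slides Eng differed by 0.43 on slide 1 and 0.41 on slide 2, and Emcn by 0.51 and 0.29. In this fit 3 of the 9 probes were higher at an unadjusted p under 0.05, Eng, Emcn and Tie1, against 6.93% of all probes, and the 2 Vwf probes were lower, against 5.71%. None had an FDR under 0.05 by limma.

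**Figure D3:**
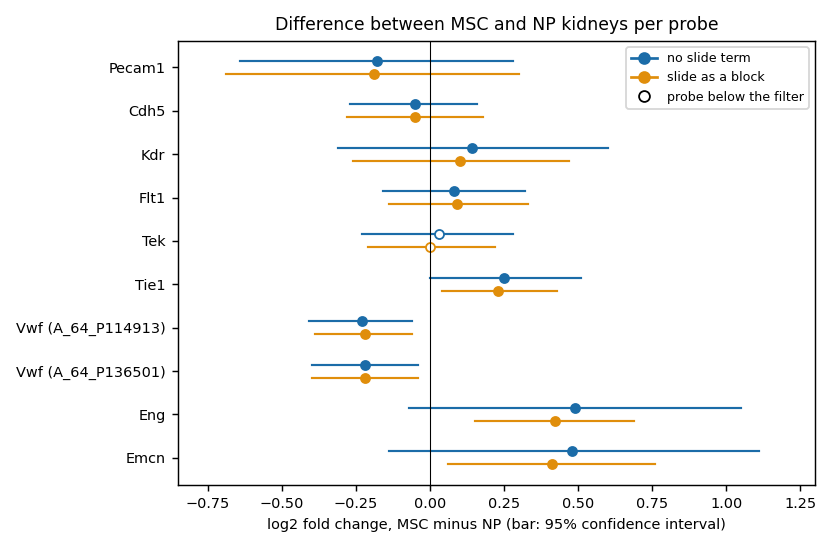
Log2 fold change between MSC and NP for each endothelial probe (x axis), with its 95% confidence interval, without a slide term (blue) and with the slide as a block (orange). Open points are Tek, which lay below the filter and was fitted without it. Only the slide block narrows the Eng and Emcn intervals enough to leave 0 outside, and the Vwf intervals leave it outside in both fits.

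Cells other than renal endothelium also carry these transcripts. Adipose tissue is rich in capillaries, and fat markers were high in MSC 3 and MSC 4, with summed intensities of 77300 and 42200 against 8770 to 15100 in NP, although Lep and Plin1 did not pass the filter. MSC 1 and MSC 2 were at 9110 and 15900. NP 4 and NP 5, at 9170 and 8770, were lowest of NP in fat markers but highest of NP in Eng and Emcn. MSC 1 had the highest Eng and Emcn values of slide 1. Adipoq, the fat hormone adiponectin, had a log2 fold change of 1.43 and Fabp4, a fatty acid carrier, 1.23, which were 0.92 and 0.67 without MSC 3. With all kidneys 6 of 6 fat probes were higher and none passed the FDR threshold. The part of fat in the Eng and Emcn values was not tested.

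The perfused MSC themselves are another possible carrier of Eng. All 8 probes for MSC markers were higher, with a median of 0.08 and summed intensities of 36800 to 75700 in NP and 47000 to 63300 in MSC. Col1a1, a collagen chain, had log2 fold changes of 1.06 and 0.70 with its probes, at an FDR of 0.333 for each, whereas Thy1, Itga5 and Postn did not pass the filter. What MSC RNA added to Eng was not tested.

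Tie1, the orphan receptor that partners Tek, read 9.35, 9.25, 9.15, 9.45 and 9.53 in NP 1 to 5 and 9.59, 9.36, 9.84 and 9.61 in MSC 1 to 4. Of the MSC kidneys 3 were above all NP kidneys, and MSC 2 lay between them. The log2 fold change was 0.25 ± 0.11 (SE), 1.19-fold, with a limma p of 0.0498, an FDR of 0.426 and an exact permutation p of 0.0635. It was 0.23 within either slide and 0.23 ± 0.09 with the slide as a block (unadjusted p = 0.0254, FDR 0.34). The unadjusted p stayed under 0.05 in 2 of the 9 fits that left out a kidney, and without MSC 3 the value was 0.17. With the background-subtracted intensity it was 0.42.

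Tek, the angiopoietin receptor itself, was dim. It was above the filter on 0 of 9 arrays, although 15 of its 18 spots were well above background by the scanner's own test. It read 8.25, 8.66, 8.39, 8.55 and 8.65 in NP and 8.52, 8.28, 8.60 and 8.70 in MSC. The groups overlapped, with MSC 4 just above the highest NP kidney. Fitted without the filter, its log2 fold change was 0.03 ± 0.11, with an interval of -0.23 to 0.28 and an exact permutation p of 0.857. At this brightness a log2 fold change is compressed by background, which was not subtracted.

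Of the growth factor receptors, Kdr, the main signalling receptor, read 13.61, 14.11, 13.39, 14.05 and 13.96 in NP and 13.89, 13.45, 14.17 and 14.36 in MSC. MSC 3 and MSC 4 were the highest of the 9 kidneys and MSC 2 the second lowest. The log2 fold change was 0.14 ± 0.20 with an interval of -0.31 to 0.60 (limma FDR 0.81), and it turned from -0.03 within slide 1 to 0.26 within slide 2. Flt1, which binds the same ligand and also exists in a secreted form, read 9.89, 10.06, 9.70, 9.79 and 9.87 in NP and 10.09, 9.97, 9.68 and 10.03 in MSC. MSC 3 was the lowest and MSC 1 the highest Flt1 value of all kidneys. Its log2 fold change was 0.08 ± 0.11, with an interval of -0.16 to 0.32 (FDR 0.791). With single kidneys left out, Flt1 ranged from 0.03 without MSC 1 to 0.17 without MSC 3, and Kdr from 0.02 without MSC 4 to 0.32 without MSC 2.

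The junction genes varied more among the NP kidneys than among the MSC kidneys. Pecam1 read 12.55, 13.80, 12.93, 13.16 and 13.14 in NP and 12.91, 12.78, 12.95 and 13.11 in MSC. NP held both extremes, NP 1 and NP 2, and the 4 MSC kidneys lay between them. The log2 fold change was -0.18 ± 0.21 with an interval of -0.64 to 0.28 (FDR 0.76), and it ranged from -0.32 without NP 1 to -0.01 without NP 2. Cdh5 read 8.71, 9.20, 8.96, 8.94 and 8.90 in NP and 8.91, 8.90, 8.81 and 8.95 in MSC, close to the filter, which it passed on 8 arrays. Again the MSC kidneys lay between NP 1 and NP 2. Its log2 fold change was -0.05 ± 0.10, with an interval of -0.27 to 0.16 (FDR 0.859). These intervals leave room for a change of either sign, so they do not show that the junction genes were alike in both groups.

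**Figure D4:**
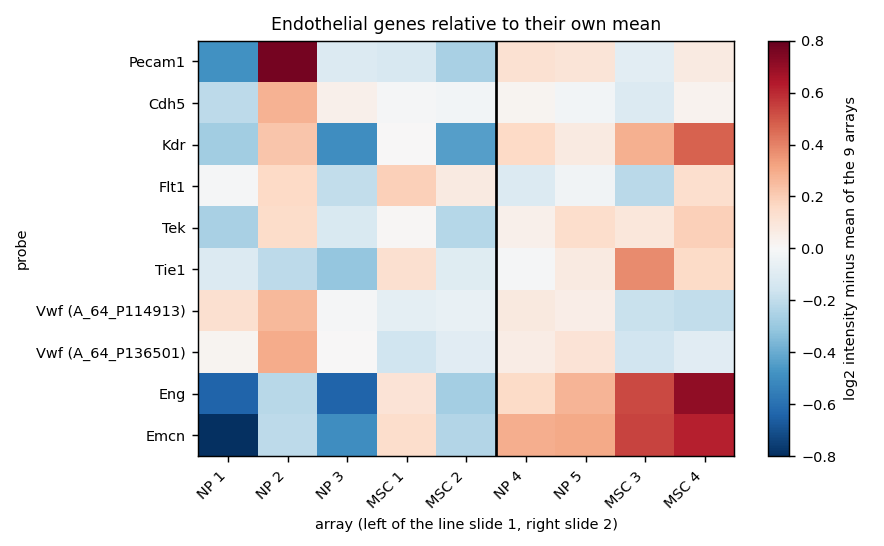
Log2 intensity of each endothelial probe minus its own mean over the 9 arrays (colour), with arrays ordered by slide and group. Eng, Emcn, Kdr and Tie1 are redder on slide 2, Pecam1 and Cdh5 stand out in NP 2, and both Vwf probes are blue in all 4 MSC kidneys.

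Across the 9 kidneys the genes fell into sets that varied alike. Pearson's r, given as a description over 9 arrays that share group, slide and normalization, was 0.96 between Emcn and Eng, 0.91 between Pecam1 and Cdh5, 0.89 between Kdr and Tek and 0.85 between Kdr and Eng. Flt1 had r between -0.08 and 0.37 to the other genes. Vwf had r of -0.66 (A_64_P114913) and -0.57 (A_64_P136501) to Tie1 and of -0.60 and -0.32 to Eng. Part of this order followed group and slide. With their means removed, r was 0.95 for Pecam1 and Cdh5, 0.95 for Tek and Eng, 0.94 for Tek and Emcn, 0.92 for Kdr and Eng and 0.80 for Emcn and Eng. Flt1 then reached 0.79 with Kdr and 0.78 with Eng. The Vwf probes had r of 0.54 and 0.65 to Eng and of 0.26 and -0.14 to Tie1, whose r to the other genes lay between -0.42 and 0.28.

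Averaged over 8 of the probes, 1 per gene that passed the filter, the centred level was -0.33, 0.13, -0.28, 0.09 and 0.11 in NP 1 to 5 and 0.04, -0.17, 0.15 and 0.26 in MSC 1 to 4. The groups overlapped, and NP 1, NP 3 and MSC 2, all of slide 1, were the low kidneys. The members had unequal r to this mean profile, 0.93 for Kdr, 0.90 for Eng and Emcn, 0.63 for Pecam1 and 0.62 for Tie1. For Cdh5 it was 0.41, for Flt1 0.24 and for Vwf (A_64_P136501) 0.06. Kdr, Eng and Emcn were also higher on slide 2, whose part in this profile was not tested. The named genes outside the 9 whose probes were most like this profile were Vcan (r = 0.963), Ahnak (0.951) and RT1-CE7 (0.944), then RT1-CE11, Ppapdc1a, RT1-CE12, Wipf1, Cyp4b1, RT1-Cl and Agtr1b, down to r = 0.911, over 9 arrays. Vcan encodes the matrix proteoglycan versican. The RT1 genes are class I histocompatibility genes, whose near-identical copies a probe may not tell apart.

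The promoters of Eng and Emcn, the pair with the highest r over the 9 arrays before group and slide were removed, are shown because factors of the ETS family, such as Erg and Fli1, are known regulators of endothelial genes. Both sequences are from RefSeq (GRCr8), 300 bases across the start of the gene and mostly before it, 5′ to 3′ on the plus strand, at chr3:36332029-36332328 for Eng and chr2:228564289-228564588 for Emcn. Capitals mark the ETS core GGAA and its reverse complement TTCC.
Eng promoter: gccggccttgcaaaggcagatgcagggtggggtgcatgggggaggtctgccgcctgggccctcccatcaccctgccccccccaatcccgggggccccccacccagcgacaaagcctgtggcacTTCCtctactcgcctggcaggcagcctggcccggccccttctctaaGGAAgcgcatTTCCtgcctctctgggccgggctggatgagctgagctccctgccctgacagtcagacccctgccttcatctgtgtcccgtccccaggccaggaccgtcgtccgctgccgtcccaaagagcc
Emcn promoter: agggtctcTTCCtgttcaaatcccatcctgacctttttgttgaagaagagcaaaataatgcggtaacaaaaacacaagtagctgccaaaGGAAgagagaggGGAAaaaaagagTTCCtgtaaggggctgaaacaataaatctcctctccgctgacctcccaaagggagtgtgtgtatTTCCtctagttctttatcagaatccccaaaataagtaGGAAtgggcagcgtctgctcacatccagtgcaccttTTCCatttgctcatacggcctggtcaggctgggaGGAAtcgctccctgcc
The core was found 3 times in Eng and 8 times in Emcn, and 5, 3 and 4 times in Kdr, Flt1 and Tie1, the other members in the promoter table, which held 5 of the 9. So short a motif is in 95.8% of the 33469 promoters of the table, with a median of 3 matches. The longer form CCGGAAGT was in 3.81% of all promoters and the GATA motif AGATAA in 11.6%, and neither was in these 5. Both strands were searched, and a match is a description of the letters.

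More probes for the partners of these receptors were lower than higher in MSC, where 48.7% of all probes tested were higher. Of 23 ligands and partners 16 passed the filter, and 6 of their 19 probes were higher and 13 lower, with a median log2 fold change of -0.19. Tgfbr2, the type II TGF-beta receptor that signals with Eng, had -0.42 ± 0.17 (unadjusted p = 0.0374, limma FDR 0.408), and -0.67 with the background-subtracted intensity. Notch1, a receptor of vessel branching, had -0.44, and -0.24 without NP 2. The 4 probes of Vegfa, the ligand of Kdr and Flt1, had -0.47, -0.29, -0.23 and 0.08, where the first was -0.20 without NP 2 and the second -0.12 without MSC 1. None of the Notch1 and Vegfa values over all kidneys had an unadjusted p under 0.05. Dll4, Nrp2, Gp1ba and Adamts13, the last being the protease that cuts von Willebrand factor, did not pass the filter.

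Among endothelial transcription factors, 4 of 14 probes were higher and 10 lower, with a median of -0.10. Klf2, the factor induced by flow in endothelium, was the highest, at 0.42 ± 0.18 (unadjusted p = 0.0398, limma FDR 0.41), and ran from 9.01 to 9.69 in NP and from 9.30 to 10.10 in MSC. It was 0.72 with the background-subtracted intensity and 0.27 with arrays weighted by their quality in limma. Epas1, the hypoxia-inducible factor HIF-2 alpha, had -0.91 ± 0.50, with NP 2 at 13.38 and the other NP kidneys between 10.32 and 11.92, and it was -0.46 without NP 2. Lyl1, a helix-loop-helix factor of blood and endothelial cells, had -0.52, and -0.30 without MSC 1.

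Other genes of the endothelial surface split evenly, with 9 of 18 probes higher and 9 lower and a median of 0. Cav1, which builds caveolae, had the largest difference, 0.62 ± 0.19 (unadjusted p = 0.01, limma FDR 0.333), at 12.32, 11.78, 11.58, 11.95 and 12.06 in NP 1 to 5 and 12.22, 12.24, 12.97 and 12.79 in MSC 1 to 4. MSC 3 and MSC 4 were again the highest, and the difference was 0.34 within slide 1 and 0.87 within slide 2. They were also the kidneys with the highest fat markers, whose part in the Cav1 values was not tested. Plvap, the diaphragm protein of fenestrated capillaries, differed by 0.02, between -0.11 and 0.23 with single kidneys left out, and Icam2 by 0.27, or by 0.14 without NP 3. The vascular segment genes had 3 of 6 probes higher, with 0.33 and 0.40 for the 2 probes of podoplanin (Pdpn), which podocytes and lymphatic vessels share, and -0.20 for the arterial connexin Gja5. The first Pdpn probe (A_64_P157371) had 0.63 within slide 1, -0.04 within slide 2 and 0.54 with the background-subtracted intensity. With single kidneys left out, Gja5 ranged from -0.36 without MSC 3 to -0.10 without NP 4, and it was -0.46 with the background-subtracted intensity.

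More probes for endothelial activation and coagulation genes were higher than lower. Of 11 probes 8 were higher and 3 lower, with a median of 0.27, and 3 were higher at an unadjusted p under 0.05, beside the 6.51% of all probes. Tfpi, the inhibitor of tissue factor, read 10.63, 10.50, 10.59, 10.35 and 10.37 in NP and 10.81, 10.92, 10.70 and 10.82 in MSC, so that every MSC kidney lay above every NP kidney. The same held for 3.17% of all probes tested. For Tfpi the separation is therefore given as a description. Its log2 fold change was 0.32 ± 0.09 (unadjusted p = 0.00396, limma FDR 0.333). Selp (P-selectin), which is stored in the same granules as von Willebrand factor and also in platelets, averaged 8.79 ± 0.28 in NP (SD, n = 5) and 9.36 ± 0.35 in MSC (n = 4), a log2 fold change of 0.57 ± 0.19 (SE), and the groups overlapped. NP 3, 4 and 5 were at 8.59, 8.68 and 8.50, below the filter, and with the background-subtracted intensity the value was 1.13. Plat, the tissue plasminogen activator, had -0.09, which turned to 0.04 without MSC 4. None of these passed an FDR of 0.05, and the difference between Vwf and these genes was not tested.

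**Figure D5:**
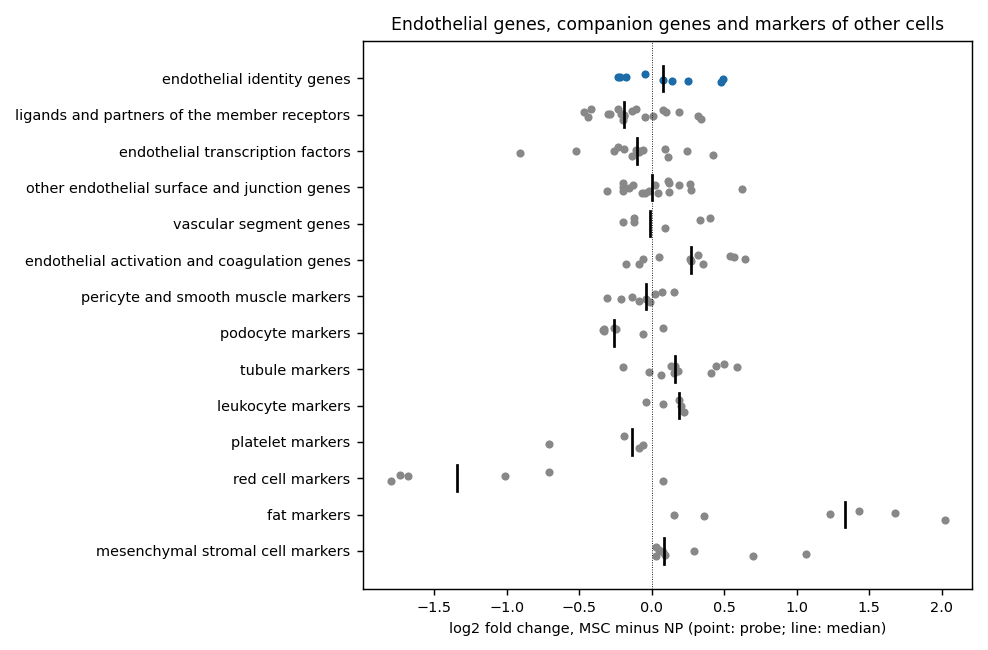
Log2 fold change between MSC and NP (x axis) of each probe past the filter, by list, with the list median as a line. Endothelial identity genes are in blue with a median of 0.08, red cell markers spread down to -1.80, and fat markers have a median of 1.33.

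Among markers of other kidney cells, 4 of 11 tubule probes were higher at an unadjusted p under 0.05, beside the 6.51% of all probes, and 0 of 7 podocyte, 0 of 9 pericyte and 0 of 5 leukocyte probes passed in either direction. With so few probes a count of 0 is near the share over all probes, and none of these probes had an FDR under 0.05 (limma). Tubule markers had 9 of 11 probes higher, with a median of 0.16, and their mean centred level ran from -0.19 to 0.02 in NP and from 0.08 to 0.21 in MSC. Slc5a2, the proximal glucose transporter, had 0.44 and Slc12a3, the distal sodium chloride transporter, 0.59 and 0.41 with its probes, none past the FDR threshold. Podocyte markers had 6 of 7 probes lower, with a median of -0.26. Their mean centred level was -0.74 in MSC 4, while MSC 1 to 3, at 0.04, 0.21 and 0.02, lay within the NP range of -0.27 to 0.38. Pericyte and smooth muscle markers had 6 of 9 lower, with a median of -0.04, and leukocyte markers 4 of 5 higher, with a median of 0.19. In the pericyte list NP 2 stood at 0.71 against -0.39 to 0.33 elsewhere, and NP 2 was also the kidney highest in Pecam1, Cdh5 and Vwf. What these cells contributed to the endothelial values was not tested.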

How the data were processed

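RNA of 9 kidneys (5 NP, 4 MSC) was hybridised by the authors to 1-colour Agilent arrays, scanned and read with Agilent Feature Extraction 10.7.3.1, per the labels. The deposited scanner files hold a mean pixel intensity per spot, without background subtraction. They also hold a background-subtracted intensity, which was used here only as an alternative. The authors also deposited log2 values normalized between arrays. No column of per-sample values was left without a sample (0 columns).

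Here the mean intensity was log2 transformed and normalized by cyclic loess, outlier spots were dropped, and the spots of a probe averaged. Set against the authors' log2 table, array by array, r was 0.9999 to 0.99997. For the filter, the 95th percentile of each array's negative controls (log2) was multiplied by 1.1, and probes brighter than this on at least 4 arrays were tested with limma 3.58.1 in R 4.3.3 and adjusted by Benjamini-Hochberg over all probes tested. Single probes were also compared by an exact two-sided permutation test. The fit was tried on simulated data first.

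The 9 genes and the 13 companion and marker lists were chosen with earlier results of these data known. In each list the text names from the 3 probes with the smallest p and the brightest probe, and the 10 probes of other named genes most like the mean profile of the members. A gene that this rule would name is not reported here. Alternatives covered the intensity column, background correction, normalization, filter, probe choice, variance model, slide, replicate number, each array left out and the deposited values. Gene names and rn4 positions are those of the array files.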

Additional observations from a re-analysis of the deposited data

How the results depend on the processing

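The results were recomputed under 24 alternatives, which gave 694 comparisons, of which 664 kept their direction and their side of the threshold or moved by less than their spread. For Vwf the log2 fold change ranged from -0.29 to -0.19 and from -0.28 to -0.17 with its probes, for Eng from 0.19 to 0.67, for Emcn from 0.13 to 0.65 and for Tie1 from 0.17 to 0.42. No member probe passed an FDR of 0.05 under any of them. With median scaling none of the members had an unadjusted p under 0.05, and Vwf had 0.107 and 0.0733. Over all genes, probes higher in MSC at an FDR under 0.05 numbered 0 in the fit reported, 2 with array weights and 4 within slide 2. The log2 fold change reversed to -0.03 for Kdr within slide 1, to -0.04 for Pdpn (A_64_P157371) within slide 2 and to 0.01 for Cdh5 without NP 2 (range -0.11 to 0.01 over the arrays left out). The cause was not tested. Without NP 1 that of Emcn was 0.30. Kidneys with the same replicate number deviated together with r of 0.20, 0.32, -0.35 and 0.05, so the numbers were not taken as pairs. With the replicate number as a block the values were 0.61 for Eng, 0.61 for Emcn, 0.30 for Tie1 and -0.25 and -0.22 for Vwf, and no probe of any gene passed an FDR of 0.05. Signal limits genes near the negative controls, among them Tek, Cdh5, Selp and Gja5.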
